A study of Mus musculus with 12 samples.

Results

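The solute carrier (Slc) transcripts of mouse bone marrow monocytes were examined by substrate class: 153 genes of the 53819 counted. Members were selected on their symbol, which begins with Slc, a family number, the letter a and a digit, and on their measured counts, 50 or more in 3 or more libraries. Of 355 such symbols, 192 were under that count, 81 of them at 0 in all 12 libraries, and 10 were set aside by name (the iron carriers Slc40a1, Slc11a1 and Slc11a2, the amino acid carriers Slc7a11, Slc7a1, Slc7a2, Slc7a5 and Slc3a2, the glucose carrier Slc2a1 and the lactate carrier Slc16a3). Just inside the limit, the third-highest library count was 50 for Slc18a2, 51 for Slc7a4 and 55 for Slc37a1, and just outside it was 48 for Slc2a4rg-ps, 47 for Slc9a5 and 44 for Slc25a29. All 153 members passed the filter on low counts, and 135 had 50 or more counts in each of the 12 libraries. Slc6a4 and Slc6a12 reached 50 counts in libraries with LPS only, and Slc36a2, Slc6a19, Slc7a4, Slc5a3 and Slc37a1 in libraries without LPS only, so the choice of members itself favours a difference for these 7.

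Monocytes came from the bone marrow of C57Bl6J mice of WT genotype, in 4 groups of 3 libraries. PLT_LPS cells were kept with platelets overnight, washed and then given lipopolysaccharide (LPS), a bacterial cell wall component that activates monocytes through Toll-like receptor signalling. LPS cells received LPS alone, PLT cells received platelets alone, and NC cells neither. The sources used here give no age or sex of the mice, no doses and no duration of LPS. They also do not say whether libraries of 1 group were separate animals or cultures, so p-values measure the spread between libraries, which may be technical.

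Solute carriers are membrane proteins that move sugars, amino acids, ions, metals, vitamins and nucleosides across the plasma membrane and the membranes of lysosomes, mitochondria and the Golgi. Many work by exchange or by coupling to a sodium or proton gradient. In monocytes and macrophages they feed glycolysis and amino acid use during activation, load and empty lysosomes, and set the supply of zinc, copper and iron. Classes group families by substrate, and 3 members were placed apart from their family for the substrate they carry: Slc16a10 with amino acids, Slc43a3 with nucleosides and Slc5a6 with vitamins. The Slc25 family was kept whole as mitochondrial carriers, by family number and not by the location of each member. The Slc6 family was kept whole with amino acids, so the serotonin transporter Slc6a4 counts there. The classes were mitochondrial carriers (35 members), amino acids (23), inorganic ions (22), zinc and copper (19), sugars and sugar phosphates (11), vitamins and cofactors (9), lipids with choline and acetyl-CoA (7), organic ions and vesicular carriers (7), monocarboxylates and organic acids (5), nucleosides and nucleobases (5), nucleotide sugars (5), and peptides with histidine (2). The remaining 3 members carry a solute carrier's name but are not transporters: Slc9a3r1 encodes a scaffold protein, and Slc4a1ap and Slc7a6os are named after a carrier that they bind or lie beside.

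The promoters of Slc2a6, Slc49a4 and Slc25a10 are shown because these transcripts moved alike. LPS raised each, and the platelet effect on each, as a log2 fold change, was lower with LPS than without it. The 150 bases before the RefSeq start (GRCm38.p6) are given 5′ to 3′ on the gene's strand, at chr2:27027999-27028148 (minus strand) for Slc2a6, chr16:35769371-35769520 (minus strand) for Slc49a4 and chr11:120491687-120491836 (plus strand) for Slc25a10. Capitals mark a match to GGGANNNNCC, letters typical of NF-kB sites, searched on both strands.
Slc2a6: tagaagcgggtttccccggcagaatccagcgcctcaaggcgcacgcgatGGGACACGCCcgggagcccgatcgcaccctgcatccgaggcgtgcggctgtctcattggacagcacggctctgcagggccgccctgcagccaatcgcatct
Slc49a4: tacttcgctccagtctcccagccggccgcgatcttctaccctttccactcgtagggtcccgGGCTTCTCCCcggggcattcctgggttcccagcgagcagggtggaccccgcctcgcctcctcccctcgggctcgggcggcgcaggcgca
Slc25a10: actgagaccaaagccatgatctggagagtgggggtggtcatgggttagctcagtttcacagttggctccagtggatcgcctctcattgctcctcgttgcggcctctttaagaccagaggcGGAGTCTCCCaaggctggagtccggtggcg
The match begins at -101 in Slc2a6, -89 in Slc49a4 and -30 in Slc25a10, counting -1 as the base before the start. Over windows from 250 bases before to 50 after the start, the motif was held by 22.9% of all 27025 genes with a window and by 33 of the 115 members with one (28.7%), so a match in a single promoter is common. It was held by 13 of 35 members that LPS raised and 9 of 42 that LPS lowered, given as a description. None of the 3 windows held GAAANNGAAA, letters of the interferon response element, which occurred in 3.99% of all genes.

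Library totals were 20060867 to 32155727 counts, so 3 counts, the limit that a count of 0 allows, corresponded to 0.0854 to 0.164 CPM (counts scaled to the library's TMM-adjusted total), and this covers counting error only. Members together held 0.956 to 1.21% of the counts. Among PLT libraries replicate 1 was unlike the others: its pairwise chi-square per degree of freedom was 76.9 and 84.5, against 6.73 to 21.8 for all other replicate pairs, and its mitochondrial share was 0.886%, against 0.431 to 0.600% elsewhere. Its description field reads Control while its title and treatment name platelets, so results are also given without it. The 7 monocyte markers, led by Lyz2, summed to 34767 to 37406 CPM in PLT_LPS, 31285 to 34948 CPM in LPS, 37495 to 40628 CPM in PLT and 31738 to 35368 CPM in NC libraries, but they did not move alike. In LPS against NC, Cd14 was 10.7-fold, Ly6c2 2.14-fold and Fcgr1 1.37-fold higher and Ccr2 3.65-fold lower (adjusted p up to 2.96e-04). In PLT against NC, Lyz2 rose by 0.28 on the log2 scale (adjusted p = 0.0163) and Ccr2 changed by -0.55 (adjusted p = 0.0026), a fall. In PLT_LPS against LPS, Ly6c2 and Fcgr1 rose and Ccr2 and Itgam fell.

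Transcripts of other blood cells moved with platelets and with LPS. The 6 erythroid markers summed to 7.08 to 9.35 CPM in PLT_LPS and 0.0362 to 0.650 CPM in LPS libraries, and to 11.9 to 24.5 CPM in PLT and 1.12 to 1.61 CPM in NC libraries. Of 5 basophil and mast cell markers tested, 4 rose in PLT against NC and 2 in PLT_LPS against LPS. That list summed to 82.7 to 93.8 CPM in PLT_LPS, 104 to 107 CPM in LPS, 7.85 to 9.71 CPM in PLT and 1.37 to 2.56 CPM in NC libraries, with Hdc at a mean of 80.4, 103, 0.645 and 0.231 CPM in the same order. Of 6 dendritic cell markers, 3 rose in PLT against NC (Flt3, Ccr7 and Fscn1) and 4 in LPS against NC (these and Xcr1). Their sum was 87.8 to 100.5 CPM in PLT_LPS, 76.7 to 91.6 CPM in LPS, 5.82 to 8.23 CPM in PLT and 1.77 to 2.74 CPM in NC libraries. The 8 neutrophil markers, led by S100a8, summed to 36.1 to 58.6 CPM in PLT_LPS, 28.0 to 40.9 CPM in LPS, 32.0 to 50.4 CPM in PLT and 24.5 to 31.7 CPM in NC libraries. The 7 B, T and NK cell markers summed to at most 3.38 CPM in any library, and the T cell transcript Cd3e was at 0 in all. Of 9 platelet and megakaryocyte markers tested, 5 rose and 1 fell in PLT against NC, and also 5 rose and 1 fell in PLT_LPS against LPS. The sum of that list, led by Pf4, was 3634 to 3913 CPM in PLT_LPS, 3904 to 4717 CPM in LPS, 3402 to 6109 CPM in PLT and 3789 to 4497 CPM in NC libraries. Its defining glycoprotein transcript Gp9 averaged 4.10 CPM in PLT_LPS against 0.0241 CPM in LPS, and 10.1 CPM in PLT against 0.0117 CPM in NC libraries, while Gp1bb was at or near 0 throughout. The part of these transcripts in the results below, with platelets or with LPS, was not tested. In bulk RNA, fewer cells that hold a transcript and less of it per cell cannot be told apart.

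Few carriers were abundant. Per kilobase of exon (GENCODE M21 lengths, found for 150 members), the mitochondrial ADP/ATP exchanger Slc25a5 stood highest in NC cells at 349 ± 11.4 CPM per kb (SD, n = 3), followed by the heme transporter Slc48a1 at 268 ± 4.96, the neutral amino acid exchanger Slc7a8 at 169.9 ± 13.6 and the sugar phosphate exchanger Slc37a2 of the endoplasmic reticulum at 115 ± 3.75 CPM per kb. In LPS cells the order was Slc48a1 at 356 ± 17.6, Slc25a5 at 346 ± 5.44, then the copper carriers Slc31a2 at 271 ± 13.3 and Slc31a1 at 141 ± 7.99 and the glucose carrier family member Slc2a6 at 107 ± 6.39 CPM per kb. Slc48a1 and Slc25a5 lay within the spread of the replicates in LPS cells. Slc2a6 ranked 109 of 150 in NC cells and 5 in LPS cells. Exons of 22 members overlap those of another protein-coding gene in GENCODE M21 and, with the strand setting of the counts not given, reads of such pairs cannot be told apart. They include Slc16a6 with Amz2 and Arsg, Slc15a3 with Tmem132a, Slc48a1 with Hdac7 and Slc39a13 with Psmc3.

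LPS alone changed most of the members. In LPS against NC, 44 of 153 rose and 56 fell at an adjusted p under 0.05 (edgeR's quasi-likelihood test, Benjamini-Hochberg over 13151 genes), which is 65.4% of members against 50.7% of all genes tested. By direction, 28.8% of members rose against 27.7% of all genes, and 36.6% fell against 23.0%. Members had to reach 50 counts in 3 libraries, while all genes had only to pass the filter on low counts. This favours calls among members here and below. No share over genes of like counts was computed, so the excess is no result about carriers as a group. The median log2 fold change was -0.10 over members and 0.01 over all genes, and 46 members passed the threshold with at least a 2-fold change. The split of directions rests on the scaling: with library size alone, which moved the median of all genes by -0.38 on the log2 scale, 28 members rose and 91 fell, and with upper-quartile factors, which moved it by -0.20, 33 rose and 74 fell. Values below are from the trimmed-mean (TMM) scaling, which sets the middle of the genes near 0, and are changes relative to that middle. Counts by substrate class below stand beside 27.7% of all genes higher and 23.0% lower. They were not tested against these shares and are a description. Where groups are said not to overlap or to lie apart, this describes 3 libraries each. Most members are named for a small p or a large change, which favours such a gap. The share of all genes with such a gap was not computed, so it adds no support.

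**Figure D1:**
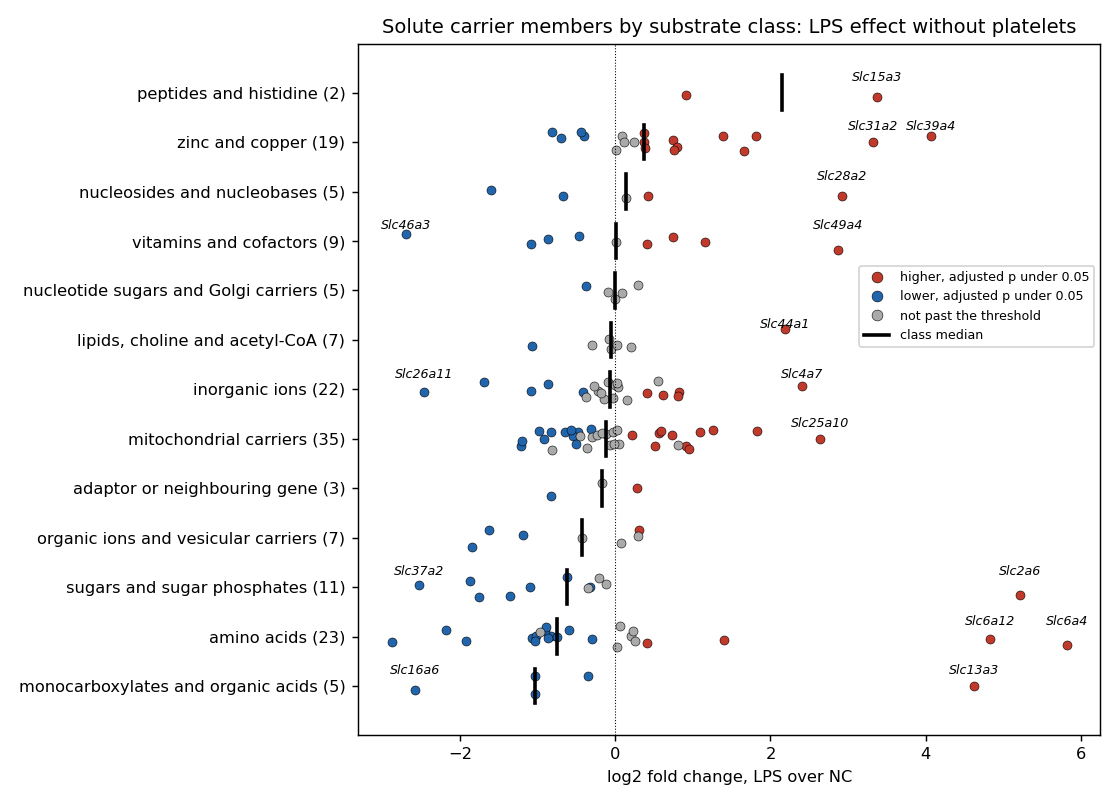
Each point is 1 of 153 members, placed by its log2 fold change in LPS over NC monocytes (3 libraries each) in the row of its substrate class, with the number of members in brackets. Black bars are class medians, which run from 2.15 for peptides and histidine to -1.03 for monocarboxylates. Most rows hold rising and falling members, and Slc2a6, Slc6a12, Slc6a4 and Slc13a3 lie far to the right of classes whose other members mostly fell. Slc6a12 and Slc6a4 are members through libraries with LPS only.

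Zinc and copper carriers were the larger class that leaned upward: 11 of 19 rose and 4 fell in LPS against NC, with a median of 0.37. This lean was lost under library size alone, where 7 rose, 5 fell and the median was -0.01, while upper-quartile factors gave 7 and 4. The zinc importer Slc39a4 (ZIP4) had 56.6, 51.4 and 53.3 CPM in LPS libraries, against 3.58, 2.74 and 3.26 CPM in NC libraries, 16.8-fold higher (log2 4.07 ± 0.18 SE, adjusted p = 1.54e-11). The vesicular copper carrier Slc31a2 had 573, 521 and 562 CPM in LPS and 53.6, 54.6 and 57.0 CPM in NC libraries, 10.02-fold higher (log2 3.33 ± 0.12 SE, adjusted p = 1.26e-12). The copper importer Slc31a1 (CTR1) had 615, 566 and 632 CPM in LPS and 203, 182 and 190.4 CPM in NC libraries. Both copper carriers thus rose, Slc31a1 by 3.15-fold (adjusted p = 9.01e-10), and their groups did not overlap. Slc39a13, a zinc carrier of the secretory pathway, had 106, 114 and 102 CPM in LPS and 27.1, 33.2 and 31.7 CPM in NC libraries (log2 1.81 ± 0.09 SE, adjusted p = 1.20e-10). Its overlapping neighbour Psmc3 rose by 0.42 on the log2 scale (adjusted p = 0.00158). The zinc exporter Slc30a1 had 30.3, 33.5 and 31.8 CPM in LPS and 12.2, 13.5 and 10.7 CPM in NC libraries, 2.63-fold higher (adjusted p = 4.64e-07). Slc39a14, which carries zinc, manganese and iron, had 143, 152 and 153 CPM in LPS and 93.1, 89.0 and 75.2 CPM in NC libraries, 1.74-fold higher (adjusted p = 9.85e-05). Members that fell were Slc39a10, Slc39a8, Slc39a6 and Slc30a5. The zinc importer Slc39a8 (ZIP8) had 2.50, 2.03 and 4.09 CPM in LPS and 4.77, 5.47 and 3.54 CPM in NC libraries, groups that overlapped. Its fall (adjusted p = 0.0289) was lost without NC replicate 1 or 2 or LPS replicate 1 or 2, with an adjusted p of up to 0.129.

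Amino acid carriers mostly fell: 13 of 23 were lower and 4 higher in LPS than in NC cells, with a median of -0.75. The 4 include Slc6a12 and the serotonin transporter Slc6a4, members through libraries with LPS only. The 13 include Slc36a2 and Slc6a19, members through libraries without LPS only. The lysosomal amino acid exporter Slc36a1 had 3.91, 4.47 and 3.76 CPM in LPS and 15.6, 13.8 and 16.9 CPM in NC libraries, 3.81-fold lower (log2 -1.93 ± 0.17 SE, adjusted p = 1.20e-07). The lysosomal exporter of cationic amino acids Slc66a1 had 28.7, 27.6 and 30.1 CPM in LPS and 59.9, 59.4 and 61.6 CPM in NC libraries, 2.09-fold lower (adjusted p = 3.80e-08). The creatine importer Slc6a8 had 16.8, 17.4 and 17.9 CPM in LPS and 32.1, 33.2 and 41.1 CPM in NC libraries, 2.04-fold lower (adjusted p = 2.51e-06). In each of these the LPS libraries all lay under the NC libraries. Slc38a2, a sodium-coupled carrier of small neutral amino acids, had 59.1, 44.8 and 57.7 CPM in LPS and 108, 95.5 and 95.2 CPM in NC libraries (log2 -0.89 ± 0.14 SE, adjusted p = 8.48e-05). The taurine importer Slc6a6 had 455, 447 and 493 CPM in LPS and 694, 693 and 712 CPM in NC libraries (log2 -0.59 ± 0.08 SE, adjusted p = 1.62e-05). Slc7a8 had 504, 485 and 531 CPM in LPS and 919, 849 and 783 CPM in NC libraries (adjusted p = 0.00485). All 3 were lower without overlap. Against this direction, the betaine and GABA importer Slc6a12 had 10.2, 9.59 and 8.01 CPM in LPS and 0.140, 0.526 and 0.306 CPM in NC libraries (log2 4.82 ± 0.37 SE, adjusted p = 1.65e-08). Its choice as a member favours this rise, and its NC libraries held only 4, 15 and 9 counts. The aromatic amino acid carrier Slc16a10 had 190.4, 197 and 183 CPM in LPS and 68.4, 72.0 and 74.3 CPM in NC libraries, 2.65-fold higher (adjusted p = 1.34e-08). The serotonin transporter Slc6a4, which platelets are known for, had 82, 66 and 54 counts in LPS and 0, 4 and 0 counts in NC libraries, with 52, 61 and 53 counts in PLT_LPS and 4, 0 and 4 counts in PLT libraries. It passed the threshold (adjusted p = 3.73e-06), but no fold is given because libraries without LPS lay at or just over the limit that a count of 0 allows.

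Of 11 sugar carriers, 7 fell, 1 rose and 3 did not pass the test in LPS against NC, with a median of -0.62. The member that rose had the largest rise among members with at least 5 CPM: Slc2a6 (GLUT6), an intracellular member of the glucose carrier family, had 318, 355 and 352 CPM in LPS and 10.2, 8.14 and 9.18 CPM in NC libraries, 37.3-fold higher (log2 5.22 ± 0.12 SE, adjusted p = 6.17e-15). Slc37a2 had 133, 127 and 137 CPM in LPS and 781, 771 and 734 CPM in NC libraries, 5.76-fold lower (log2 -2.53 ± 0.11 SE, adjusted p = 1.99e-11). The glucose importer Slc2a3 (GLUT3) had 4.27, 4.79 and 6.32 CPM in LPS and 20.9, 19.2 and 15.6 CPM in NC libraries, 3.65-fold lower (adjusted p = 6.61e-07). Slc45a4, of a family of proton-coupled sugar carriers, had 8.29, 7.80 and 8.66 CPM in LPS and 32.7, 24.9 and 25.8 CPM in NC libraries (log2 -1.75 ± 0.15 SE, adjusted p = 4.75e-08). Slc2a6 thus went opposite to the other 3, and none of these 4 overlapped between groups.

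Of 5 monocarboxylate and organic acid carriers, 4 fell and 1 rose, not counting Slc16a10, a member of the same family that rose and is placed with amino acids. Slc16a6 (MCT7), a family member that exports ketone bodies in zebrafish liver, had 8.07, 7.27 and 8.99 CPM in LPS and 54.3, 45.9 and 44.9 CPM in NC libraries, 5.98-fold lower (log2 -2.58 ± 0.13 SE, adjusted p = 6.60e-11), while the neighbours that overlap its exons had changes of 0.41 (Amz2, adjusted p = 0.0167) and -1.07 (Arsg, adjusted p = 0.0792). Slc16a13 had 7.49, 7.76 and 6.87 CPM in LPS and 15.1, 13.3 and 16.9 CPM in NC libraries (adjusted p = 7.68e-06). The lactate carrier Slc16a1 (MCT1) had 18.9, 21.1 and 20.9 CPM in LPS and 26.3, 26.0 and 25.2 CPM in NC libraries, a small fall (log2 -0.35 ± 0.11 SE, adjusted p = 0.0154) that was lost without LPS replicate 1 (adjusted p = 0.0702). The sodium-coupled dicarboxylate importer Slc13a3 rose, with 60.1, 64.1 and 52.5 CPM in LPS and 2.88, 2.03 and 2.24 CPM in NC libraries, 24.7-fold higher (log2 4.62 ± 0.18 SE, adjusted p = 2.66e-12).

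Mitochondrial carriers, taken as the whole Slc25 family, were evenly split, with 11 of 35 higher and 11 lower and a median of -0.12. Over all genes tested, 27.7% were higher and 23.0% lower, so a mixed split is not particular to this class. The split was 7 higher and 23 lower under library size alone and 9 and 19 under upper-quartile factors. The dicarboxylate carrier Slc25a10 had 189.9, 199 and 190.3 CPM in LPS and 30.6, 29.6 and 32.6 CPM in NC libraries, 6.24-fold higher (log2 2.64 ± 0.08 SE, adjusted p = 1.84e-13). The glutamate carrier Slc25a22 had 135, 143 and 147 CPM in LPS and 36.5, 41.6 and 41.7 CPM in NC libraries, 3.55-fold higher (adjusted p = 1.53e-10). The mitochondrial iron importer Slc25a37 (mitoferrin-1) had 69.5, 71.3 and 76.1 CPM in LPS and 29.7, 30.3 and 30.2 CPM in NC libraries, 2.40-fold higher (log2 1.26 ± 0.08 SE, adjusted p = 1.08e-09). The 3 carriers that rose by most thus move dicarboxylates, glutamate and iron. The abundant ADP/ATP exchangers did not pass the test, at -0.01 for Slc25a5 (adjusted p = 0.911) and 0.05 for Slc25a4 (adjusted p = 0.714). Among the members that fell, the changes of largest size were -1.21 for the ATP-magnesium/phosphate carrier Slc25a24 and -1.20 for Slc25a30.

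Vitamin carriers had 4 of 9 higher and 4 lower, with a median of 0.01 that became -0.37 under library size alone. Slc49a4, a lysosomal membrane transporter, had 97.8, 109 and 114 CPM in LPS and 12.3, 16.2 and 15.3 CPM in NC libraries, 7.32-fold higher (log2 2.87 ± 0.12 SE, adjusted p = 6.84e-12). The vitamin C importer Slc23a2 had 186, 206 and 226 CPM in LPS and 95.8, 91.4 and 91.1 CPM in NC libraries, 2.22-fold higher (adjusted p = 1.70e-06). The lysosomal carrier Slc46a3 had 3.62, 3.09 and 3.71 CPM in LPS and 23.5, 22.8 and 21.4 CPM in NC libraries, 6.50-fold lower (log2 -2.70 ± 0.19 SE, adjusted p = 5.17e-09). That was the fall of largest size among members with at least 5 CPM. Its relative Slc46a1, the proton-coupled folate importer, had 5.57, 5.61 and 5.50 CPM in LPS and 10.9, 12.6 and 11.97 CPM in NC libraries, 2.13-fold lower (adjusted p = 7.21e-06). The reduced folate carrier Slc19a1 had 21.8, 13.9 and 21.8 CPM in LPS and 28.5, 23.7 and 27.4 CPM in NC libraries (adjusted p = 0.0337), a call lost without NC replicate 1 or 3 or LPS replicate 2, with an adjusted p of up to 0.173. The heme carrier Slc48a1 had 1024, 986 and 928 CPM in LPS and 721, 742 and 747 CPM in NC libraries, 1.33-fold higher (adjusted p = 1.27e-04), a call lost under library size alone (adjusted p = 0.710). The thiamine importer Slc19a2 had 42.3, 39.9 and 43.3 CPM in LPS and 27.2, 23.6 and 23.8 CPM in NC libraries, 1.68-fold higher (adjusted p = 0.0019), and its call was also lost there (adjusted p = 0.102).

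Inorganic ion carriers had 5 of 22 higher and 5 lower, against 3 and 13 under library size alone and 4 and 10 under upper-quartile factors. With TMM scaling this is near the shares of all genes, 27.7% higher and 23.0% lower. The sodium bicarbonate carrier Slc4a7 had 227, 227 and 249 CPM in LPS and 48.2, 42.4 and 42.1 CPM in NC libraries, 5.30-fold higher (log2 2.41 ± 0.13 SE, adjusted p = 1.50e-10). The sulfate carrier Slc26a11 had 2.28, 2.15 and 3.76 CPM in LPS and 16.1, 13.1 and 15.1 CPM in NC libraries, 5.50-fold lower (log2 -2.46 ± 0.20 SE, adjusted p = 2.64e-08). The phosphate importer Slc20a1 had 8.69, 7.03 and 9.37 CPM in LPS and 25.5, 28.4 and 27.2 CPM in NC libraries, 3.24-fold lower (adjusted p = 2.22e-08). Each of these 3 kept its groups apart. The endosomal sodium/proton exchanger Slc9a9 had 64.7, 57.1 and 56.2 CPM in LPS and 74.5, 66.8 and 66.4 CPM in NC libraries and did not pass the test (log2 -0.22 ± 0.14 SE, adjusted p = 0.220).

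In the smaller classes, both peptide and histidine carriers rose. The lysosomal carrier Slc15a3 had 324, 360.1 and 325 CPM in LPS and 32.0, 32.2 and 33.2 CPM in NC libraries, 10.4-fold higher (log2 3.37 ± 0.13 SE, adjusted p = 2.40e-12), and Tmem132a, whose exons overlap it, rose by 3.39 on the log2 scale (adjusted p = 3.38e-12). Slc15a4, the related endolysosomal carrier needed for endosomal Toll-like receptor signalling, had 114, 115 and 103 CPM in LPS and 62.1, 55.7 and 57.5 CPM in NC libraries, 1.89-fold higher (adjusted p = 2.20e-07). Of 5 nucleoside carriers, 2 rose and 2 fell. The sodium-coupled purine nucleoside importer Slc28a2 had 30.5, 26.3 and 32.2 CPM in LPS and 3.26, 3.93 and 4.56 CPM in NC libraries, 7.56-fold higher (adjusted p = 6.06e-10). The equilibrative carrier Slc29a2 had 2.53, 1.46 and 2.62 CPM in LPS and 7.50, 6.66 and 5.82 CPM in NC libraries, 3.03-fold lower (adjusted p = 3.73e-05). The lysosomal nucleoside exporter Slc29a3 had 33.9, 28.6 and 40.3 CPM in LPS and 55.4, 56.1 and 52.8 CPM in NC libraries, 1.60-fold lower (adjusted p = 8.92e-04). The equilibrative carrier Slc29a1 (ENT1), named after its values were seen, had 65.1, 54.7 and 55.6 CPM in LPS and 42.7, 44.8 and 43.3 CPM in NC libraries, 1.34-fold higher (adjusted p = 0.00169), a call lost under library size alone or upper-quartile factors (up to 0.731). The 3 equilibrative carriers thus did not move alike, since 1 rose and 2 fell.

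Of 7 organic ion and vesicular carriers, 3 fell and 1 rose. The lysosomal sialic acid exporter Slc17a5 had 16.9, 17.3 and 15.4 CPM in LPS and 53.5, 48.9 and 50.4 CPM in NC libraries, 3.08-fold lower (adjusted p = 6.16e-10). The vesicular nucleotide carrier Slc17a9 had 1.27, 2.84 and 1.20 CPM in LPS and 6.80, 6.59 and 5.92 CPM in NC libraries, and Slc22a15 had 2.35, 0.772 and 1.36 CPM in LPS and 3.96, 2.56 and 3.81 CPM in NC libraries (adjusted p = 5.27e-05 for Slc17a9 and 0.00681 for Slc22a15). Neither overlapped between groups. Of 7 carriers of lipids, choline and acetyl-CoA, the choline carrier Slc44a1 rose, with 214, 192 and 226 CPM in LPS and 53.9, 41.5 and 43.2 CPM in NC libraries, 4.56-fold higher (adjusted p = 2.53e-08). The fatty acid carrier Slc27a1 fell, with 164, 165 and 169 CPM in LPS and 355, 349 and 341 CPM in NC libraries, 2.10-fold lower (adjusted p = 9.52e-09). The acetyl-CoA carrier Slc33a1 had 26.6, 25.3 and 29.6 CPM in LPS and 25.7, 23.4 and 21.4 CPM in NC libraries and did not pass the test (adjusted p = 0.101). Of 5 nucleotide sugar carriers of the Golgi, only the CMP-sialic acid carrier Slc35a1 passed the test, with 15.7, 16.4 and 15.4 CPM in LPS and 21.99, 19.5 and 20.2 CPM in NC libraries, 1.29-fold lower (adjusted p = 0.00815). Slc35a2 had 36.9, 36.1 and 31.6 CPM in LPS and 34.9, 38.6 and 38.5 CPM in NC libraries (adjusted p = 0.460), and Slc35a3 had 53.2, 52.4 and 57.1 CPM in LPS and 49.8, 41.2 and 41.4 CPM in NC libraries (adjusted p = 0.0935). The scaffold Slc9a3r1 had 83.3, 82.8 and 77.8 CPM in LPS and 145, 146 and 142 CPM in NC libraries, 1.77-fold lower (adjusted p = 2.44e-07). Slc4a1ap had 26.6, 25.3 and 24.7 CPM in LPS and 20.9, 21.2 and 20.8 CPM in NC libraries (log2 0.28 ± 0.09 SE, adjusted p = 0.0172). This rise turned to -0.10 under library size alone (adjusted p = 0.376). It was lost under upper-quartile factors, with no filter, or without NC replicate 3 or LPS replicate 1. Slc7a6os had 19.9, 22.3 and 16.9 CPM in LPS and 20.5, 23.8 and 22.4 CPM in NC libraries (adjusted p = 0.338).

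The LPS response of the members was close to the same with platelets. In PLT_LPS against PLT, 45 members rose and 57 fell, which is 66.7% of members against 49.4% of all genes, where 27.6% rose and 21.8% fell. These shares are again not matched for counts. The split was 31 higher and 81 lower under library size alone, with the median of all genes moved by -0.36, and 34 and 76 under upper-quartile factors, with a shift of -0.24. This comparison shares no library with LPS against NC. Of the 102 members called with platelets, 87.3% were also called without them in the same direction, and 89.0% of the 100 called without platelets were called with them: 40 rose in both, 49 fell in both and none went opposite ways. The same shares over all genes were not computed, so they are no result about carriers as a group. Across members, the fold changes of both comparisons had a Pearson r of 0.97, a description of genes that share their libraries. The rises of largest size with platelets, among members with at least 5 CPM, were 4.76 for Slc6a12, 4.31 for Slc2a6, 4.17 for Slc13a3, 3.51 for Slc39a4, 3.22 for Slc31a2 and 2.83 for Slc28a2. Slc6a12 is a member through libraries with LPS only, which favours its rise. The falls were -2.95 for Slc46a3, -2.69 for Slc26a11, -2.25 for Slc16a6, -2.16 for Slc37a2, -1.63 for Slc2a3 and -1.60 for Slc17a5. Slc13a3, for one, had 63.3, 64.0 and 62.03 CPM in PLT_LPS and 2.53, 3.44 and 4.44 CPM in PLT libraries, and Slc46a3 had 2.95, 2.66 and 2.39 CPM in PLT_LPS and 14.4, 25.01 and 22.2 CPM in PLT libraries. By class, zinc and copper carriers had 10 higher and 4 lower, amino acid carriers 5 and 13, sugar carriers 1 and 8, monocarboxylate carriers 1 and 4, and mitochondrial carriers 9 and 12. Without PLT replicate 1 the totals were 38 higher and 67 lower.

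**Figure D2:**
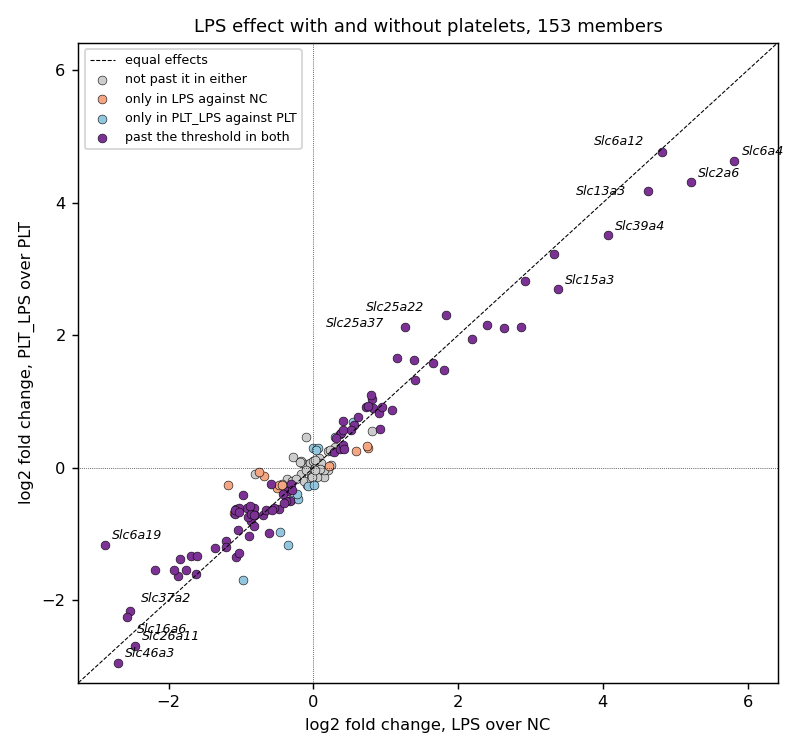
Each point is 1 of 153 members, with the log2 fold change of LPS over NC on the x axis and of PLT_LPS over PLT on the y axis (3 libraries a group); the dashed line marks equal effects. Most points lie near the line (Pearson r 0.97), and Slc2a6 and Slc15a3 lie under it while Slc25a37 lies over it.

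Platelets alone changed few carriers. In PLT against NC, 8 members rose and 5 fell, 8.50% of members against 6.49% of all genes tested, where 3.63% rose and 2.86% fell. No called member changed by 2-fold or more, and the median was -0.02 over members and 0 over all genes. The share of members called is near the background, so it is no result about carriers as a group. Without PLT replicate 1, 12 rose and 3 fell. Slc13a3 (0.75), Slc43a3 (0.58), Slc7a7 (0.51) and Slc37a4 (0.51) then joined the rises, and Slc16a10 (-0.41) the falls (adjusted p up to 0.0425). The count of falls was 1, 0 and 2 without NC replicate 1, 2 and 3, and 3 and 8 without PLT replicate 2 and 3. It was 2 without LPS replicate 1 and 2, 2 and 3 without PLT_LPS replicate 1, 2 and 3.

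**Figure D3:**
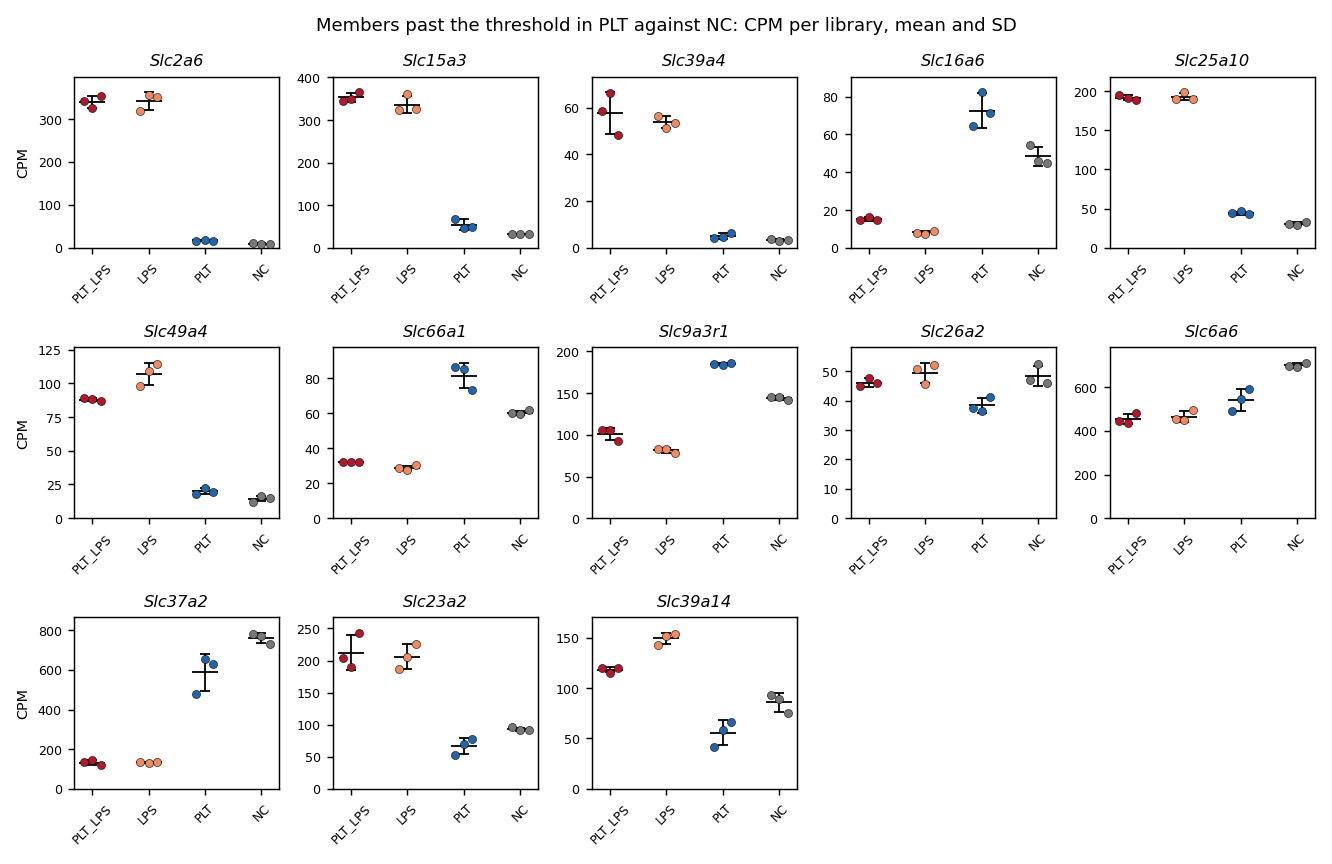
CPM per library (points), mean (horizontal line) and SD (error bar) in PLT_LPS, LPS, PLT and NC monocytes, 3 libraries each, for the 13 members past the threshold in PLT against NC. Each axis starts at 0. Slc2a6, Slc15a3, Slc39a4, Slc25a10 and Slc49a4 lie far higher in both groups with LPS, next to which the difference between PLT and NC is small.

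The rise of largest size was that of Slc2a6, with 16.9, 19.0 and 15.6 CPM in PLT and 10.2, 8.14 and 9.18 CPM in NC libraries, 1.87-fold higher (log2 0.90 ± 0.11 SE, adjusted p = 5.42e-05). Slc15a3 had 68.3, 46.7 and 49.1 CPM in PLT and 32.0, 32.2 and 33.2 CPM in NC libraries, 1.68-fold higher (log2 0.75 ± 0.12 SE, adjusted p = 0.00106), and the overlapping Tmem132a rose by 0.67 on the log2 scale (adjusted p = 0.006). PLT replicate 1 was the highest for Slc15a3, and without it the change was 0.58 (adjusted p = 5.60e-05). Slc25a10 had 44.2, 46.4 and 42.5 CPM in PLT and 30.6, 29.6 and 32.6 CPM in NC libraries, 1.43-fold higher (log2 0.52 ± 0.08 SE, adjusted p = 6.03e-04). Slc16a6 had 64.4, 82.3 and 71.1 CPM in PLT and 54.3, 45.9 and 44.9 CPM in NC libraries, 1.502-fold higher (log2 0.59 ± 0.11 SE, adjusted p = 0.00504). Slc66a1 had 86.4, 85.1 and 73.0 CPM in PLT and 59.9, 59.4 and 61.6 CPM in NC libraries, 1.35-fold higher (log2 0.43 ± 0.08 SE, adjusted p = 0.00532). In these 5 the groups did not overlap, which the choice of called members favours. Their calls held under all 21 other settings tried at an adjusted p under 0.05.

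Slc9a3r1 had 185, 184 and 187 CPM in PLT and 145, 146 and 142 CPM in NC libraries, 1.28-fold higher (adjusted p = 0.0106), a call lost without NC replicate 2 (adjusted p = 0.0524). Slc49a4 had 18.1, 22.7 and 19.5 CPM in PLT and 12.3, 16.2 and 15.3 CPM in NC libraries, 1.38-fold higher (adjusted p = 0.0261). Its call was lost under library size alone, with only the 2 groups in the fit, or without NC replicate 1 or PLT replicate 2 (up to 0.145). Slc39a4 had 4.01, 4.53 and 6.49 CPM in PLT and 3.58, 2.74 and 3.26 CPM in NC libraries, 1.58-fold higher (adjusted p = 0.0456). The groups did not overlap, yet the call of Slc39a4 was lost without any 1 of the NC or LPS replicates, PLT replicate 2 or 3 or PLT_LPS replicate 1. It was also lost by limma-voom, under library size alone, with the replicate block and with only the 2 groups in the fit (up to 0.210 over these settings). Of the 8 members that rose with platelets, Slc2a6, Slc15a3, Slc39a4, Slc25a10 and Slc49a4 had log2 fold changes of 5.22, 3.37, 4.07, 2.64 and 2.87 in LPS against NC, and Slc16a6, Slc66a1 and Slc9a3r1 had -2.58, -1.07 and -0.83. Both comparisons share the NC libraries.

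The members that fell with platelets carry zinc, vitamin C, sugar phosphate, taurine and sulfate. Slc39a14 had 41.7, 58.7 and 65.9 CPM in PLT and 93.1, 89.0 and 75.2 CPM in NC libraries, 1.55-fold lower (log2 -0.63 ± 0.13 SE, adjusted p = 0.00915). Slc6a6 had 489, 546 and 589 CPM in PLT and 694, 693 and 712 CPM in NC libraries, 1.29-fold lower (adjusted p = 0.0118). Both kept their groups apart and their calls without PLT replicate 1, at -0.44 (adjusted p = 0.00736) for Slc39a14 and -0.28 (adjusted p = 0.0182) for Slc6a6. With only the 2 groups in the fit, both lost their calls. So did Slc39a14 without NC replicate 1 or 2 (up to 0.0894 over these settings) and Slc6a6 without NC replicate 2 (up to 0.0722). Slc23a2 had 53.0, 70.3 and 77.7 CPM in PLT and 95.8, 91.4 and 91.1 CPM in NC libraries (adjusted p = 0.0424). Slc37a2 had 478, 654 and 629.8 CPM in PLT and 781, 771 and 734 CPM in NC libraries (adjusted p = 0.0482). Slc26a2, a sulfate carrier, had 37.4, 36.6 and 41.4 CPM in PLT and 47.0, 52.4 and 45.9 CPM in NC libraries (adjusted p = 0.0404). For Slc23a2 and Slc37a2, PLT replicate 1 was the lowest library. Without PLT replicate 1 none of these 3 passed the test, with adjusted p = 0.110, 0.0928 and 0.0802 for Slc23a2, Slc37a2 and Slc26a2, and each also lost its call without any 1 of the NC replicates. Other single libraries that ended a call were PLT replicate 2, LPS replicates 1 and 2 and PLT_LPS replicates 1 and 2 for Slc23a2. They were each of the LPS and PLT_LPS replicates for Slc37a2, and PLT replicate 2, LPS replicate 1 and each of the PLT_LPS replicates for Slc26a2. All 3 calls were also lost with DESeq2 size factors, upper-quartile factors or only the 2 groups in the fit. Library size alone ended those of Slc23a2 and Slc37a2, the replicate block those of Slc37a2 and Slc26a2, and using no filter that of Slc26a2. Over all settings, adjusted p was up to 0.151, 0.169 and 0.213 for Slc23a2, Slc37a2 and Slc26a2.

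Platelets before LPS also changed few carriers. In PLT_LPS against LPS, 7 members rose and 7 fell, 9.15% of members against 7.28% of all genes tested, where 4.41% rose and 2.87% fell. No called member changed by 2-fold or more, and the median was 0.01 over members and over all genes. Without PLT replicate 1, which enters through the shared estimate of spread, 11 rose and 11 fell. The rises numbered 4 without PLT_LPS replicate 1 or 2. The falls numbered 2, 3 and 3 without LPS replicate 1, 2 and 3, and 2, 2 and 3 without PLT_LPS replicate 1, 2 and 3. This comparison shares no library with PLT against NC. Slc16a6 and Slc9a3r1 rose in both, 14.3% of the 14 members called with LPS and 15.4% of the 13 called without it. None fell in both or went opposite ways, and the share over all genes was not computed. Without PLT replicate 1, Slc16a10 fell in both (-0.41 without LPS and -0.38 with it, adjusted p = 0.00146 and 5.26e-04). So did Slc39a14 (-0.44 and -0.35, adjusted p = 0.00736 and 0.00908), while Slc49a4 went opposite ways (0.55 and -0.30, adjusted p = 0.00561 and 0.04805). Across members, with all libraries, the fold changes of both comparisons had a Pearson r of 0.29, again a description.

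**Figure D4:**
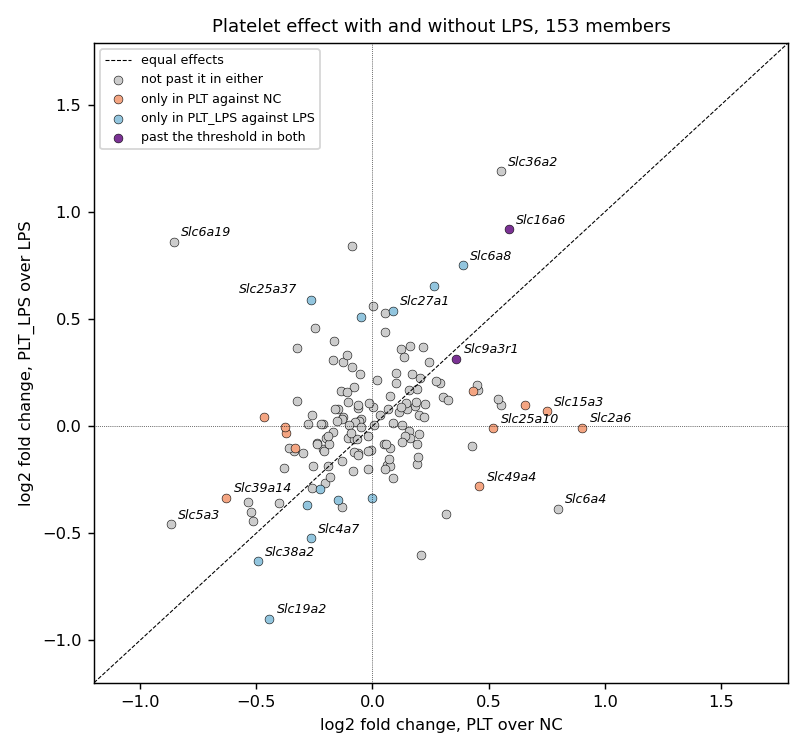
Each point is 1 of 153 members, with the log2 fold change of PLT over NC on the x axis and of PLT_LPS over LPS on the y axis (3 libraries a group); the dashed line marks equal effects. Points scatter round 0 (Pearson r 0.29), Slc16a6 and Slc9a3r1 are the 2 members past the threshold in both, and Slc2a6, Slc15a3 and Slc25a10 lie near 0 on the y axis.

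Slc16a6 had 14.6, 16.5 and 14.9 CPM in PLT_LPS and 8.07, 7.27 and 8.99 CPM in LPS libraries, 1.89-fold higher (log2 0.92 ± 0.13 SE, adjusted p = 3.31e-04), and its overlapping neighbours were at 0.06 (Amz2, adjusted p = 0.872) and 0.72 (Arsg, adjusted p = 0.485). The creatine importer Slc6a8 had 28.6, 27.9 and 31.2 CPM in PLT_LPS and 16.8, 17.4 and 17.9 CPM in LPS libraries, 1.68-fold higher (log2 0.75 ± 0.12 SE, adjusted p = 0.00111). The fatty acid carrier Slc27a1 had 239, 246 and 239 CPM in PLT_LPS and 164, 165 and 169 CPM in LPS libraries, 1.45-fold higher (log2 0.54 ± 0.08 SE, adjusted p = 4.56e-04). These 3 were lowered by LPS in LPS against NC, at -2.58, -1.03 and -1.07, and their PLT_LPS libraries lay between those of LPS and NC. That comparison shares the LPS libraries with this one. The mitochondrial iron importer Slc25a37 differed in this: it had 111, 104 and 111 CPM in PLT_LPS and 69.5, 71.3 and 76.1 CPM in LPS libraries, 1.503-fold higher (log2 0.59 ± 0.08 SE, adjusted p = 1.63e-04), on top of its rise with LPS. These 4 calls held under all 21 other settings. The erythroid transcript Hba-a1 averaged 6.22 CPM in PLT_LPS and 0.0452 CPM in LPS libraries, and 11.6 CPM in PLT and 0.243 CPM in NC libraries, while Slc25a37 had 25.5, 25.1 and 24.5 CPM in PLT and 29.7, 30.3 and 30.2 CPM in NC libraries.

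Rises that were lost under other settings were those of Slc36a1, Slc29a3 and Slc9a3r1. Slc36a1 had 6.95, 6.04 and 6.14 CPM in PLT_LPS and 3.91, 4.47 and 3.76 CPM in LPS libraries, 1.57-fold higher (adjusted p = 0.0371). Slc29a3 had 46.9, 49.0 and 50.3 CPM in PLT_LPS and 33.9, 28.6 and 40.3 CPM in LPS libraries, 1.42-fold higher (adjusted p = 0.0428). Slc9a3r1 had 106, 105 and 92.3 CPM in PLT_LPS and 83.3, 82.8 and 77.8 CPM in LPS libraries, 1.24-fold higher (adjusted p = 0.0238). The groups did not overlap in any of the 3. The calls were lost without any 1 of the LPS or PLT_LPS replicates or NC replicate 1 for Slc36a1 (up to 0.140), and without any 1 of the NC or PLT_LPS replicates or LPS replicate 1 or 2 for Slc29a3 (up to 0.185). For Slc9a3r1 they were lost without any 1 of the LPS replicates or PLT_LPS replicate 1 or 2 (up to 0.115). The replicate block also ended the calls of Slc36a1 and Slc29a3, and limma-voom that of Slc36a1. DESeq2 size factors or library size alone ended that of Slc29a3, and using no filter that of Slc9a3r1. The highest adjusted p values given are over all these settings.

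**Figure D5:**
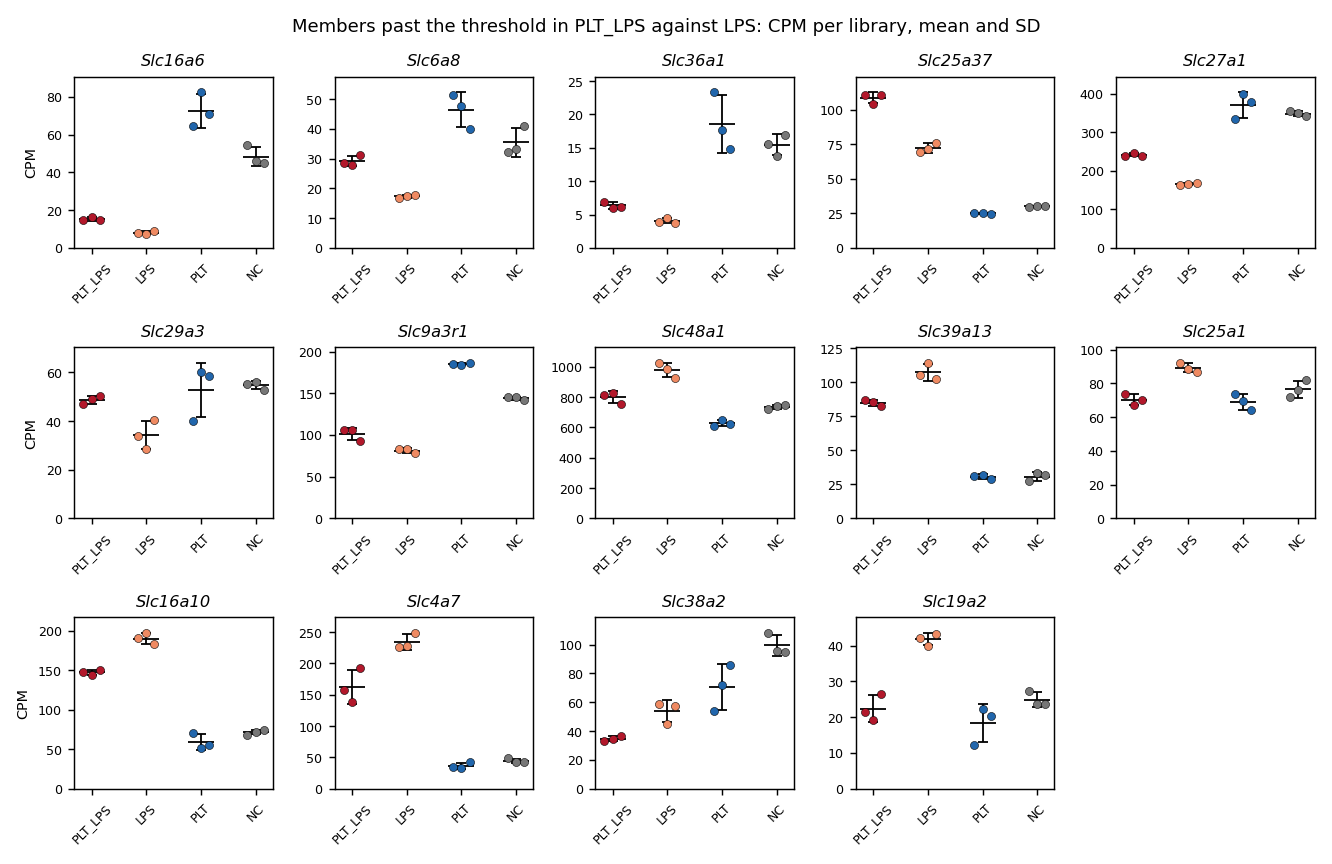
CPM per library (points), mean (horizontal line) and SD (error bar) in PLT_LPS, LPS, PLT and NC monocytes, 3 libraries each, for the 14 members past the threshold in PLT_LPS against LPS. Each axis starts at 0. The PLT_LPS points of Slc25a37 lie above those of the other 3 groups, and those of Slc19a2 lie near PLT and NC and under LPS.

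The fall of largest size was that of the thiamine importer Slc19a2, with 21.5, 19.3 and 26.5 CPM in PLT_LPS and 42.3, 39.9 and 43.3 CPM in LPS libraries, 1.86-fold lower (log2 -0.90 ± 0.17 SE, adjusted p = 0.00477), and its call held under all 21 other settings. Slc38a2 had 32.9, 34.6 and 36.9 CPM in PLT_LPS and 59.1, 44.8 and 57.7 CPM in LPS libraries, 1.55-fold lower (log2 -0.63 ± 0.15 SE, adjusted p = 0.0146). In PLT against NC, Slc38a2 had 54.2, 72.1 and 85.8 CPM in PLT and 108, 95.5 and 95.2 CPM in NC libraries and just missed the threshold (adjusted p = 0.0515). The bicarbonate carrier Slc4a7 had 158, 138 and 192 CPM in PLT_LPS and 227, 227 and 249 CPM in LPS libraries, 1.44-fold lower (log2 -0.52 ± 0.12 SE, adjusted p = 0.0135). The groups lay apart in all 3. Slc38a2 lost its call without LPS replicate 1 or 3 or PLT_LPS replicate 1 or 2 (up to 0.0752), and Slc4a7 without LPS replicate 3 or PLT_LPS replicate 1 or 2 (up to 0.0862).

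The other falls were smaller, at -0.37 to -0.29 on the log2 scale. The heme carrier Slc48a1 had 816, 827 and 756 CPM in PLT_LPS and 1024, 986 and 928 CPM in LPS libraries (adjusted p = 0.0175). The mitochondrial citrate carrier Slc25a1 had 74.0, 67.2 and 69.9 CPM in PLT_LPS and 92.3, 88.8 and 86.9 CPM in LPS libraries (adjusted p = 0.0218). Slc39a13 had 87.1, 85.4 and 82.8 CPM in PLT_LPS and 106, 114 and 102 CPM in LPS libraries (adjusted p = 0.0332), and its neighbour Psmc3 was at -0.02 (adjusted p = 0.935). Slc16a10 had 147, 144 and 150.2 CPM in PLT_LPS and 190.4, 197 and 183 CPM in LPS libraries (adjusted p = 0.0432). None of the 4 overlapped between groups. The calls were lost without LPS replicate 1 or 2 or PLT_LPS replicate 1 or 3 for Slc48a1 (up to 0.0933), and without LPS replicate 1 or 2 or PLT_LPS replicate 2 or 3 for Slc25a1 (up to 0.107). They were lost without any 1 of the LPS or PLT_LPS replicates for Slc39a13 (up to 0.139), and without any 1 of the NC, LPS or PLT_LPS replicates for Slc16a10 (up to 0.154). With no filter, Slc48a1, Slc25a1 and Slc39a13 also lost their calls, and with the replicate block Slc39a13 and Slc16a10 did. The highest adjusted p values given are over all these settings.

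The platelet effect with LPS was set against that without LPS by the interaction term, PLT_LPS minus LPS less PLT minus NC. It passed the threshold for 4 members, 1 higher and 3 lower, 2.61% of members against 1.58% of all genes tested, where 0.859% were higher and 0.722% lower. Slc25a37 was the higher one: its platelet fold change was 0.59 with LPS and -0.26 without (log2), a difference of 0.85 ± 0.11 SE (adjusted p = 6.07e-04). Its fall without LPS did not pass the test in PLT against NC, nor did it without PLT replicate 1 (adjusted p = 0.0773). Slc2a6 was at -0.01 with LPS and 0.90 without, a difference of -0.91 ± 0.14 (adjusted p = 0.00357), with 341, 326 and 353 CPM in PLT_LPS libraries, which overlapped its LPS libraries. Slc49a4 was at -0.28 with LPS and 0.46 without (difference -0.74 ± 0.16, adjusted p = 0.0282), and had 88.9, 88.6 and 86.6 CPM in PLT_LPS libraries. Slc25a10 was at -0.01 and 0.52 (difference -0.53 ± 0.11, adjusted p = 0.0213), and had 195, 191 and 188 CPM in PLT_LPS libraries. As a log2 fold change, the rise with platelets alone was thus not seen with LPS for Slc2a6 and Slc25a10. This holds for ratios, at levels far higher with LPS. The LPS libraries of Slc2a6 differed among themselves by more CPM than its PLT from its NC libraries. A rise of equal size in CPM could therefore not be seen there. The direction turned for Slc49a4, although its value with LPS did not pass the test (adjusted p = 0.151, against 0.04805 without PLT replicate 1). These 3 are the members whose promoters are printed above, and the 3 windows share the marked letters as 22.9% of all genes do.

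The differences of Slc25a37 and Slc2a6 held under all 20 other settings. That of Slc25a10 was lost with no filter or with the replicate block. It was also lost without NC replicate 1 or 2, PLT replicate 2, LPS replicate 1 or 2 or any 1 of the PLT_LPS replicates (up to 0.093 over these settings). That of Slc49a4 was lost under library size alone. It was also lost without NC replicate 1 or 3, PLT replicate 2, LPS replicate 2 or 3 or any 1 of the PLT_LPS replicates (up to 0.0816 over these settings). Without PLT replicate 1, 2 members were higher and 6 lower, the added ones being Slc27a1 at 0.34, Slc19a2 at -0.71, Slc15a3 at -0.53 and Slc15a4 at -0.42. The lower members numbered 1 without NC replicate 1, LPS replicate 2 or any 1 of the PLT_LPS replicates. Short of the threshold by least, Slc15a3 was at -0.68 ± 0.17 (adjusted p = 0.0539) and Slc27a1 at 0.45 ± 0.11 (adjusted p = 0.0558). For Slc16a6, the member with the largest called rise in PLT_LPS against LPS, the difference was 0.33 ± 0.17 (adjusted p = 0.524), so its 2 platelet effects were not shown to differ.

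Transporters named outside the family scheme, transporter partners and metal-response genes were read beside the members, 26 of them tested. In LPS against NC, 8 rose and 11 fell. The organic anion carrier family member Slco3a1 averaged 177 ± 6.89 CPM in LPS and 1.65 ± 0.475 CPM in NC libraries (SD, n = 3 each; log2 6.74 ± 0.16 SE, adjusted p = 9.89e-15), a larger rise than that of any member. Its relative Slco2b1 averaged 0.984 ± 0.636 CPM in LPS and 20.3 ± 2.89 CPM in NC libraries (log2 -4.32 ± 0.33 SE, adjusted p = 1.34e-08). Lrrc8c, a subunit of the volume-regulated anion channel, rose by 2.12 on the log2 scale (adjusted p = 4.33e-09), and the heme and choline carrier Flvcr1 changed by -1.95 (adjusted p = 2.12e-07). With the zinc carriers, the metal-responsive factor Mtf1 rose by 0.43 (adjusted p = 0.0032) while the metallothionein Mt1 changed by -0.54 (adjusted p = 0.0138), a fall. In PLT against NC, 2 fell: Emb, a partner of monocarboxylate carriers, at -0.36 (adjusted p = 0.0308) and Slco2b1 at -0.90 (adjusted p = 0.0469). In PLT_LPS against LPS, Mfsd12, Slco3a1 and Slc8b1 rose and Emb and Mtf1 fell, led by the mitochondrial sodium/calcium/lithium exchanger Slc8b1 at 0.53 (adjusted p = 0.00142).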

How the data were processed

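The labels' protocols name RNeasy Plus Micro isolation, SMARTer Ultra Low Input (v4) amplification and the Nextera XT preparation. Tools in the submitters' processing notes are STAR 2.7.9a, Salmon 1.5.2, featureCounts, Subread 2.0.1 and fastp 0.23.1, without their roles. Not given in the sources used here: build, annotation and strandedness. The deposited values are raw counts (whole numbers of reads for each gene, which the authors did not normalize), for 53819 genes in each of 12 libraries.

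Members, classes, gene lists and tests were chosen with earlier results of these data known. Counts were fitted once with 4 group means (edgeR 4.0.16 quasi-likelihood test, TMM factors, filterByExpr, 13151 genes, 8 residual degrees of freedom, R 4.3.3), two-sided, with Benjamini-Hochberg adjustment over all genes tested and a threshold of 0.05. CPM are counts scaled to the TMM-adjusted library size, and fold changes are edgeR's. The procedure was tested on simulated counts. Values in every library are given for the 6 largest called rises and falls per comparison (at least 5 CPM in the higher group), members called in a platelet comparison or the interaction (up to 12 by smallest p), up to 3 members per class by smallest p in LPS against NC, and a short fixed list. The other called members of the platelet comparisons are given too, chosen after their values were seen. Alternatives were other scalings and filters, DESeq2 1.42.0, limma-voom 3.58.1, the 2 groups alone, a replicate block, a 2-fold limit and each library left out.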

Additional observations from a re-analysis of the deposited data

Results flagged for a closer look

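The platelet effect differed between cells with and without LPS, by the interaction term of edgeR's quasi-likelihood test (Benjamini-Hochberg adjusted p under 0.05), for 4 members, on the log2 scale. For Slc25a37, the effect with LPS minus that without was 0.853 (adjusted p = 0.000607). PLT_LPS libraries lay above LPS libraries in all 3, and PLT libraries below NC libraries in all 3. The fall in PLT against NC did not pass the test. For Slc2a6 it was -0.912 (adjusted p = 0.00357), for Slc49a4 -0.742 (adjusted p = 0.0282) and for Slc25a10 -0.531 (adjusted p = 0.0213). In these 3, each PLT library lay above each NC library. The choice of the 4 members by this test favours such gaps, and the share of all genes with them was not computed.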

How the results depend on the processing

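Among 3254 values of single members recomputed under the other settings, 3043 kept their direction and side of the threshold, 41 gained and 169 lost the call, and 1 reversed: Slc4a1ap in LPS against NC, at -0.0976 under library size alone. Calls that held under every setting numbered 5 of 13 in PLT against NC, 75 of 100 in LPS against NC, 5 of 14 in PLT_LPS against LPS, 71 of 102 in PLT_LPS against PLT and 2 of 4 in the interaction, the 2-fold limit left aside.

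Counts that moved by over 1.5 times were as follows, and the cause was not tested. In PLT against NC, higher members numbered 13 by DESeq2's Wald test. Lower members numbered 2 with DESeq2 size factors or upper-quartile factors, 9 with no filter, 8 with the stricter filter, 9 by DESeq2's Wald test and 0 with only the 2 groups in the fit. Library size alone gave 28 higher and 91 lower in LPS against NC. With no filter, PLT_LPS against LPS had 4 lower. In the interaction, the higher count was 2 with no filter, the stricter filter or limma-voom and 3 by DESeq2. A 2-fold limit gave 0 in either direction in PLT against NC, PLT_LPS against LPS and the interaction, 20 higher and 26 lower in LPS against NC, and 21 higher and 21 lower in PLT_LPS against PLT.

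Leaving out 1 library at a time gave 6 to 12 higher and 0 to 8 lower in PLT against NC, 4 to 11 higher and 2 to 11 lower in PLT_LPS against LPS, and 1 to 2 higher and 1 to 6 lower in the interaction. Libraries of equal replicate number showed little sign of pairing: deviations of same-numbered libraries correlated at -0.228 to 0.140 over 18 pairs, 1 of them over 0.1. Such low values cannot exclude pairing, since deviations from a mean of few libraries also hold counting error. With the replicate block, 3 members fell in PLT against NC, against 5 without it, and 7 rose. It gave 43 higher and 55 lower in LPS against NC, 6 and 5 in PLT_LPS against LPS, 44 and 54 in PLT_LPS against PLT, and 1 and 2 in the interaction. Members with few counts, such as Slc6a4 without LPS, are limited by depth.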
